A study of Oryza sativa with 8 samples.

Results

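Rubisco, the enzyme that fixes CO2 in the chloroplast stroma, is built from large subunits made in the plastid and small subunits encoded by a nuclear RbcS gene family. Its catalytic sites become blocked by sugar phosphates, and Rubisco activase, encoded by RCA, uses ATP to release them. Both transcripts are among the most abundant messages of a green leaf, and both are known to respond to light and to the clock. The 6 genes described here were chosen by their identifiers: 5 RbcS genes (RbcS1, Os02g0152400; RBCS2, Os12g0274700; RbcS3, Os12g0291100; RbcS4, Os12g0292400; RbcS5, Os12g0291400) and RCA (Os11g0707000). All 6 were found in both deposited tables, which list 40718 and 38977 genes and share 36676.

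The RNA came from leaves of rice seedlings and was sequenced as 8 libraries, with 1 library for each group and no replicates. Leaves of the wild type DJ, of dgp1 and of the double mutant glk1glk2 were each sampled under control supply (CK) and after 6 days on low phosphate (LP, 10 µM KH2PO4). Wild-type ZH11 was sampled under control supply and 24 h after transfer to medium without phosphate (NP), and its pair forms a table of its own. DJ is the wild type to which the series design sets both mutants. Levels of ZH11 are compared only within its own pair. The GOLDEN2-LIKE factors GLK1 and GLK2 switch on nuclear photosynthesis genes, and DGP1 has been described as a protein that restrains them. The labels give no allele or line for either mutant and do not say whether plants were pooled or at what hour leaves were taken. The comparisons ask how phosphate supply and the 2 mutations go together with the transcripts of carbon fixation.

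Since each group is 1 library, every ratio below describes a pair of libraries and has no replicate check. Values are the deposited levels, taken as FPKM (reads per kilobase of gene and per a denominator set for each library). A gene was called higher or lower where log2 of the ratio of (FPKM + 1) was at least 2-fold from equal and where 1 library of the pair reached 5 FPKM. The libraries held 12525772 to 16566008 reads, but these came from very different numbers of cDNA fragments. A peak in the number of genes by read number put 1 fragment at 185 reads in glk1glk2_CK, 149 in glk1glk2_LP, 50 in DJ_CK, 21 in dgp1_CK and 7 in DJ_LP. Estimated fragments were thus 77338 in glk1glk2_CK and 84066 in glk1glk2_LP, against 15857155 in dgp1_LP, where no such peak was found and the number is an upper limit. The same holds for ZH11_CK and ZH11_NP. Intervals and floors that rest on these libraries may therefore be too narrow or too low. Parentheses give 95% intervals of a ratio, taken from an exact binomial calculation on the estimated fragments; they are approximate and cover counting error only. A count of 3 fragments, used as a floor, equals 31.0 FPKM in glk1glk2_CK, 27.7 in glk1glk2_LP and 11.5 in DJ_CK for a gene of 1 kb, and 0.175 to 5.06 FPKM in the other 5 libraries.

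GLK1 stood between 89.2 and 273 FPKM in the DJ and dgp1 libraries and at 40.9 (CK) and 49.3 (LP) in glk1glk2. GLK2 stood between 83.4 and 106 FPKM in the former and at 32.2 and 53.0 in the latter, so both target transcripts were lower in the double mutant but still listed. DGP1 itself was not analysed here. RCA ranked between 2nd and 27th among all genes in the 8 libraries, but as a member it is no independent marker of leaf tissue. No leaf marker outside the 6 genes is given here. The root marker RCc3 was listed at 6.55 FPKM in DJ_CK, below its floor, and at 0 in the other 7 libraries. LSI1, a silicon channel of roots and stem bases, ran from 12.2 to 63.2 FPKM in the 6-library table, highest in DJ_CK, and its part in the results was not tested.

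Positions are those of the files, whose genome build is not given in the sources used here. RbcS3 (chromosome 12, 11262587 to 11263636), RbcS5 (chromosome 12, 11277247 to 11278306) and RbcS4 (chromosome 12, 11320409 to 11322505) lie on the plus strand within 59.9 kb. RBCS2 (chromosome 12, 10080505 to 10081588) lies 1181 kb away on the minus strand. RbcS1 (chromosome 2, 2874951 to 2876254) is alone on its chromosome, and RCA (chromosome 11, 28932977 to 28936031) is on the minus strand. The gene lengths in the files are 939 bases for RbcS3, 943 for RbcS5, 981 for RBCS2, 999 for RbcS1, 1994 for RbcS4 and 1719 for RCA.

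The chromosome 12 copies encode near-identical proteins and may share reads. The annotation in the ZH11 table gives RbcS3 and RbcS5 the same best protein match and gives RBCS2 and RbcS4 another. How the authors' counting placed reads that match several copies is not given in the sources used here, so values of single copies are uncertain, and the sum over the RbcS genes is the safer quantity. A gene on the opposite strand overlaps each of RBCS2, RbcS3, RbcS4 and RbcS5. All 4 of these opposite-strand genes were listed at 0 in the 6-library table and reached at most 0.379 FPKM in ZH11.

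RbcS3 was the leading small subunit copy in all 8 libraries. Under control supply it stood at 7784 FPKM in DJ, 7583 in dgp1 and 778 in glk1glk2, and on low phosphate at 2869, 8164 and 490 FPKM in the same order. In ZH11 it stood at 3919 FPKM under control supply and 3379 without phosphate. The copy was high in both dgp1 libraries and in DJ_CK, intermediate in DJ_LP and lowest in both glk1glk2 libraries.

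RBCS2 was the second copy in all 8. Its control levels were 4540 FPKM in DJ, 3437 in dgp1 and 350 in glk1glk2, and its low-phosphate levels were 446, 3014 and 338 FPKM. In ZH11 its level was 1815 FPKM under control supply and 1117 without phosphate. Its DJ_LP level lay near those of glk1glk2, unlike that of RbcS3.

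RbcS4 had 569 FPKM in DJ, 562 in dgp1 and 44.9 in glk1glk2 with phosphate and 276, 1198 and 46.4 on low phosphate, and in ZH11 608 (CK) and 428 (NP). RbcS5 had 334 FPKM in DJ and 119 in dgp1 with phosphate, 59.8 and 515 on low phosphate, and in ZH11 180 (CK) and 163 (NP). Both glk1glk2 libraries list RbcS5 at 0, where 3 fragments would have given 32.9 FPKM (CK) and 29.3 FPKM (LP). For both minor copies dgp1_LP was the highest library of its table.

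RbcS1, a copy known in rice from tissues other than the leaf blade, was the lowest of the 5 except in glk1glk2, where RbcS5 was at 0. With phosphate it was listed at 0 in DJ and glk1glk2 and at 0.884 FPKM in dgp1, and on low phosphate at 5.63 in DJ, 3.85 in dgp1 and 10.4 in glk1glk2. In DJ_CK and dgp1_CK and in both glk1glk2 libraries these values lie below the floor, and the 10.4 FPKM of glk1glk2_LP rests on 1.1 estimated fragments. In ZH11, where counting was finer, RbcS1 stood at 9.61 FPKM with phosphate and 16.6 without, 1.72-fold higher (1.41 to 2.11).

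RCA reached 18414 FPKM in DJ, 16376 in dgp1 and 1490 in glk1glk2 under control supply, and 4407, 4887 and 1537 FPKM on low phosphate. In ZH11 it stood at 2799 FPKM with phosphate and 3841 without. The 2 control libraries of DJ and dgp1 were high, both low-phosphate libraries of these genotypes were lower, and both glk1glk2 libraries were lowest and close to each other. RCA ranked 2nd among all genes in DJ_CK and 3rd in dgp1_CK, and took 2.99% and 2.20% of their reads.

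**Figure D1:**
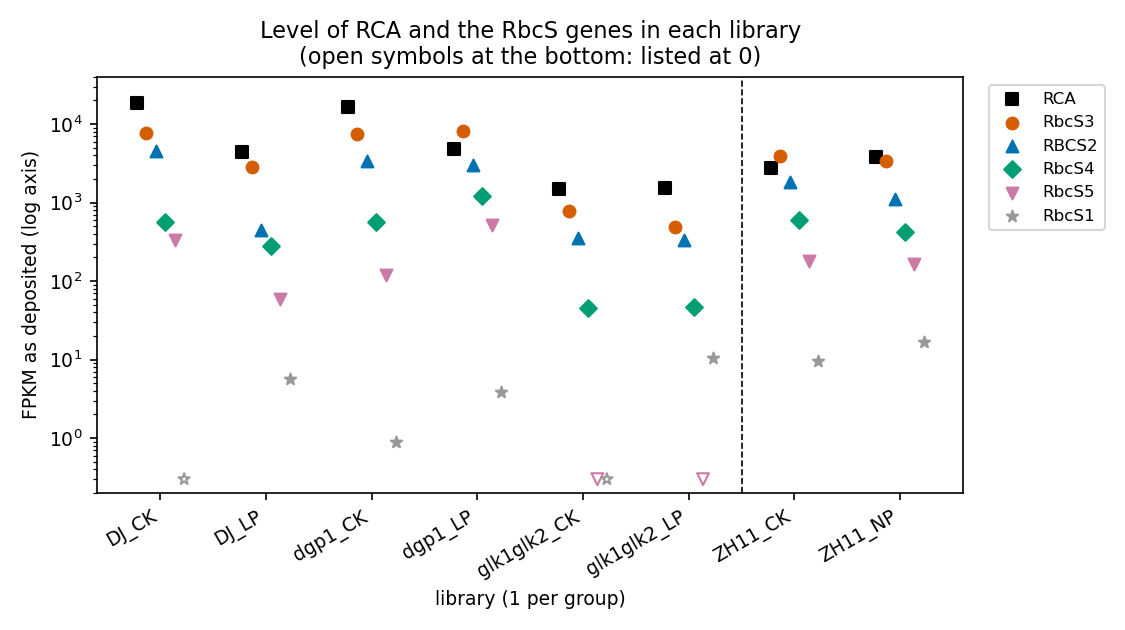
Level of RCA and of each RbcS gene (FPKM as deposited, log axis) in the 8 libraries, with the separately normalized ZH11 pair right of the dashed line and values listed at 0 as open symbols at the bottom. RCA is the highest symbol in 6 libraries, and RbcS3 is above it in dgp1_LP (8164 against 4887 FPKM) and ZH11_CK (3919 against 2799).

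On low phosphate, DJ leaves held less of every abundant small subunit transcript and less RCA. The summed RbcS level was 13227 FPKM in DJ_CK and 3656 in DJ_LP, 3.62-fold lower (3.48 to 3.76). Fewer cells of a kind and less RNA per cell cannot be told apart in such leaf samples. Called lower were 5 of the 6 genes, where 24.3% of all 15357 genes tested were called lower and 23.1% higher. Scaled to own recovered reads, the split of called genes went from 3727 lower and 3551 higher to 2800 lower and 5141 higher. RBCS2 was 10.2-fold lower (9.40 to 11.0), RbcS5 5.58-fold lower (4.23 to 7.31), RCA 4.18-fold lower (4.07 to 4.29), RbcS3 2.71-fold lower (2.58 to 2.85) and RbcS4 2.06-fold lower (1.81 to 2.33). RbcS1 was called higher only because it was listed at 0 in DJ_CK, and its 5.63 FPKM is below the floor there. When each library was scaled to its own recovered reads, the log2 ratio of RbcS4 was -0.64 in place of -1.04, and with median-of-ratios factors it was -0.91, both under 2-fold; the other 4 stayed called under own totals.

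In dgp1, the small subunits and the activase parted. Summed RbcS was 11702 FPKM in dgp1_CK and 12895 in dgp1_LP, 1.10-fold higher (1.08 to 1.13), while RCA was 3.35-fold lower on low phosphate (3.30 to 3.41). RCA was the 1 gene of the 6 called lower, against 20.7% of all 15600 genes tested. The 2 called higher, against 24% of all genes, were RbcS4 at 2.13-fold (1.97 to 2.30) and RbcS5 at 4.34-fold (3.41 to 5.61). RbcS3 at 1.08-fold (1.04 to 1.11) and RBCS2, 1.14-fold lower on low phosphate (1.09 to 1.19), were both well inside 2-fold, and RbcS1 did not reach 5 FPKM.

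The glk1glk2 pair differed little in these transcripts. RCA was 1.03-fold higher on low phosphate (0.868 to 1.23), and summed RbcS went from 1173 to 885 FPKM, 1.33-fold lower (1.00 to 1.76), resting on 113 and 97 estimated fragments. None of the 5 genes that passed the filter was called lower, against 23.1% of 15007 genes. The 1 called higher, against 23.3%, was RbcS1 from a single estimated fragment. RbcS5 was listed at 0 in both libraries and could not be called. For RBCS2 the ratio of LP to CK was 0.965 (0.585 to 1.60) and for RbcS4 1.03 (0.374 to 2.91), so differences of these sizes were not resolved at this depth. The interval of RbcS3, 1.59-fold lower (1.09 to 2.33), did not reach 1.

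In ZH11, 24 h without phosphate went with small differences in both directions. RCA was 1.37-fold higher (1.36 to 1.38), and summed RbcS went from 6531 to 5103 FPKM, 1.28-fold lower (1.27 to 1.29). RBCS2 was 1.62-fold lower (1.59 to 1.65), RbcS4 1.42-fold (1.39 to 1.45), RbcS3 1.16-fold (1.15 to 1.17) and RbcS5 1.10-fold (1.04 to 1.16). None of the 6 reached 2-fold, and among all 15002 genes tested 1.61% were called higher and 3.19% lower. Both the duration and the severity of the treatment differ from the DJ series, so the sizes of these ratios were not compared with the other table. Directions and ratios within a library are given side by side below.

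Supply was also tested over the 3 genotypes of the 6-library table, in a limma fit added after the values were seen. The fit has a term for genotype and 1 for supply on log2(FPKM + 1), so genotypes that respond differently count as error, and 2 residual degrees of freedom remain. With Benjamini-Hochberg adjustment over 19121 genes, 0% passed 0.05 in either direction, and 1567 had an unadjusted p under 0.05. RCA stood at a log2 difference of -1.25 (SE 0.67), lower on low phosphate in 2 of 3 genotypes, with a limma adjusted p of 0.605. RBCS2 stood at -1.20 (SE 0.85), lower in 3 of 3, with a limma adjusted p of 0.686. Its log2 ratios were -3.34 in DJ, -0.19 in dgp1 and -0.05 in glk1glk2, where the direction was not resolved. RbcS1 stood at 2.53 (SE 0.66), higher in 3 of 3 but at values mostly below the floor, with a limma adjusted p of 0.580. RbcS3, RbcS4 and RbcS5 had limma adjusted p-values from 0.724 to 0.993.

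Under control supply dgp1 and DJ leaves were close for 4 of the 5 abundant genes. Summed RbcS was 1.13-fold lower in dgp1 (1.08 to 1.18) and RCA 1.12-fold lower (1.10 to 1.15). RbcS5 was the 1 gene called, 2.81-fold lower in dgp1 (2.01 to 3.94), where 14.1% of 14557 genes were called lower and 16.1% higher. With own totals the split of called genes went from 2053 lower and 2342 higher to 2771 lower and 1485 higher. RBCS2 was 1.32-fold lower (1.23 to 1.42), and the intervals of RbcS3 and RbcS4 took in 1. RbcS1 did not reach 5 FPKM in either library.

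On low phosphate the small subunits were higher in dgp1 than in DJ. Summed RbcS was 3.53-fold higher (3.46 to 3.60), with RbcS5 at 8.62-fold (7.39 to 10.1), RBCS2 at 6.76-fold (6.39 to 7.15), RbcS4 at 4.34-fold (4.13 to 4.56) and RbcS3 at 2.85-fold (2.78 to 2.91). These 4 were the genes called higher, against 20.9% of 14814 genes, and none was called lower, against 13.4%. With own totals the split of called genes turned, from 3097 higher and 1987 lower to 1918 higher and 4066 lower. RCA was 1.11-fold higher (1.09 to 1.13) as deposited. Scaled to own read totals its log2 ratio turned from 0.15 to -0.40, so its direction between these libraries depends on the scaling. The same scaling put RbcS3 at a log2 ratio of 0.96, just under 2-fold, and left RBCS2, RbcS4 and RbcS5 above it. RbcS1, at 3.85 against 5.63 FPKM, had a ratio of 0.683 whose interval took in 1 (0.387 to 1.27).

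Leaves of glk1glk2 held the lowest summed RbcS and RCA levels of the DJ table. Compared with DJ under control supply, the mutant had 11.3-fold less summed RbcS (9.35 to 13.7) and 12.4-fold less RCA (10.9 to 14.1). Called lower were 5 of the 6 genes, beside 31.3% of 15533 genes called lower and 27.4% higher. With own totals the split of called genes went from 4865 lower and 4256 higher to 3924 lower and 5645 higher. RBCS2 was 13.0-fold lower (9.19 to 18.9), RbcS4 12.7-fold (6.51 to 28.5) and RbcS3 10.0-fold (7.89 to 12.9), with intervals that overlap widely. RbcS5, listed at 0 in the mutant, would be 10.15-fold lower if set at the 3-fragment floor of glk1glk2_CK. The interval for the listed 0 begins at 8.07-fold lower. RbcS1 was listed at 0 in both libraries.

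On low phosphate the ratios of glk1glk2 to DJ were nearer to 1; that the gaps differ between supplies was not tested. Summed RbcS was 4.13-fold lower in the mutant (3.39 to 5.10) and RCA 2.87-fold lower (2.55 to 3.23). RbcS3 was 5.85-fold lower (4.43 to 7.90) and RbcS4 5.96-fold (3.23 to 12.4). RbcS5, listed at 0 in the mutant, would be 2.038-fold lower if set at the floor, and the interval for the listed 0 begins at 1.64-fold. These 3 and RCA were called, 4 of 6, where 26% of 15352 genes were called lower and 23.5% higher. RBCS2 was the exception at 338 against 446 FPKM, 1.32-fold lower with an interval that takes in equality (0.948 to 1.89), and RbcS1 could not be resolved from a single estimated fragment. The comparisons of dgp1 and glk1glk2 with DJ use the same DJ libraries, as does the phosphate response of DJ, so they are not independent of each other.

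**Figure D2:**
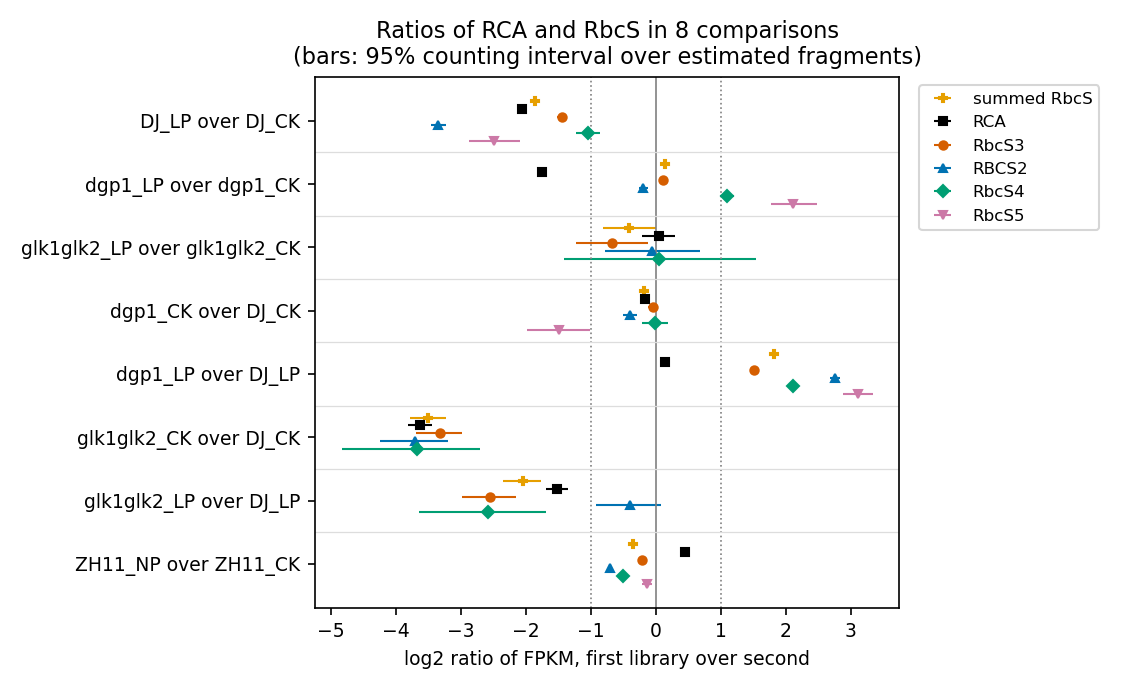
Log2 ratio of FPKM (first library over second) for summed RbcS, RCA and 4 RbcS genes in the 8 comparisons, with bars for the 95% counting interval, dotted lines at 2-fold, and genes listed at 0 in either library left out. RCA and summed RbcS lie side by side in DJ (log2 ratios of -2.06 and -1.85) and in glk1glk2_CK over DJ_CK (-3.63 and -3.49), and apart in dgp1_LP over dgp1_CK (-1.74 and 0.14).

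The make-up of the small subunit pool was read within each library, where scaling between libraries plays no part. RbcS3 made up 58.9% of the summed RbcS level in DJ under control supply, 64.8% in dgp1 and 66.3% in glk1glk2. On low phosphate its share was 63.3% in dgp1 and 55.4% in glk1glk2, in ZH11_NP it was 66.2%, and ZH11_CK lay within that range. DJ_LP was apart at 78.5%. There RBCS2 made up 12.2%, against 21.9% to 38.2% in the other 7 libraries.

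The ratio of RbcS3 to RBCS2 was 1.71 in DJ_CK (1.59 to 1.85) and 6.43 in DJ_LP (6.06 to 6.83). It was 2.21 in dgp1_CK (2.09 to 2.33), 2.71 in dgp1_LP (2.68 to 2.74), 2.22 in glk1glk2_CK (1.45 to 3.46) and 1.45 in glk1glk2_LP (0.926 to 2.29). In ZH11 it went from 2.16 (2.13 to 2.19) to 3.03 (2.98 to 3.08) without phosphate. The ratio was thus higher in the library with less phosphate in DJ, dgp1 and ZH11, and unresolved in glk1glk2.

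Copies that share a best protein match were also summed in pairs, a grouping chosen after the values were seen. In DJ the sum of RBCS2 and RbcS4 was 7.07-fold lower on low phosphate (6.64 to 7.54) and that of RbcS3 and RbcS5 2.77-fold lower (2.64 to 2.91). In ZH11 the same sums were 1.57-fold lower (1.55 to 1.59) and 1.16-fold lower (1.14 to 1.17). In dgp1 they were 1.05-fold higher (1.01 to 1.09) and 1.13-fold higher (1.09 to 1.16). A sum of FPKM weighs a read by gene length, and RbcS4 is listed at 1994 bases against 981 for RBCS2. Summed as reads over each library's denominator, RBCS2 and RbcS4 were 5.65-fold lower in DJ (5.31 to 6.02) and RbcS3 and RbcS5 2.77-fold lower (2.64 to 2.91). In ZH11 these read sums were 1.54-fold lower (1.51 to 1.56) and 1.16-fold lower (1.14 to 1.17). In dgp1 they were 1.19-fold higher (1.14 to 1.24) and 1.13-fold higher (1.09 to 1.16). Reads exchanged between the pairs were not tested.

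**Figure D3:**
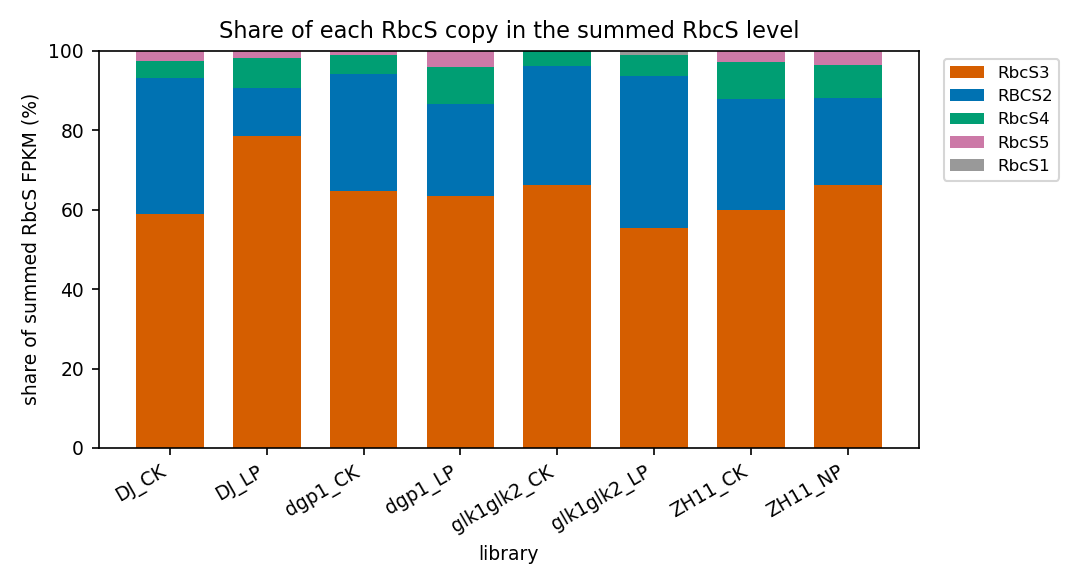
Share of each RbcS gene in the summed RbcS level (percent of FPKM, stacked bars) in the 8 libraries. The RbcS3 bar reaches 78.5% in DJ_LP and lies between 55.4% and 66.3% in the other 7, and the RBCS2 bar is shortest in DJ_LP at 12.2%.

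The level of RCA relative to its partner Rubisco subunits was compared the same way. RCA over summed RbcS was 1.39 in DJ_CK (1.34 to 1.45), 1.21 in DJ_LP (1.18 to 1.23), 1.40 in dgp1_CK (1.36 to 1.44) and 0.379 in dgp1_LP (0.376 to 0.382). It was 1.27 in glk1glk2_CK (1.01 to 1.60) and 1.74 in glk1glk2_LP (1.38 to 2.21). In ZH11 the ratio was 0.429 with phosphate (0.425 to 0.433) and 0.753 without (0.746 to 0.759).

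RCA therefore exceeded summed RbcS in 5 of the 6 libraries of the DJ table, and dgp1_LP was the exception. On low phosphate the proportion of RCA was somewhat lower in DJ (1.39 and 1.21, with intervals apart) and much lower in dgp1. In glk1glk2 it was higher (1.27 and 1.74), with intervals that overlap. The proportion was also higher without phosphate in ZH11. dgp1_LP and both ZH11 libraries, the 3 with a ratio under 1, are also the 3 in which no fragment peak was found, and the part of this in the ratio was not tested.

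**Figure D4:**
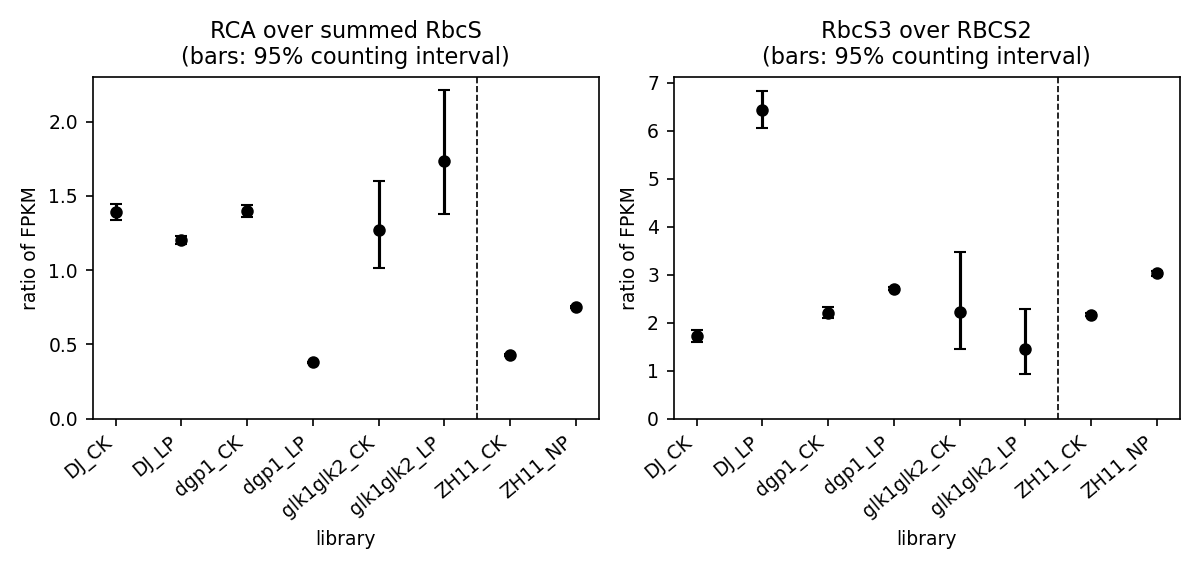
Ratio of RCA to summed RbcS (left) and of RbcS3 to RBCS2 (right) within each of the 8 libraries (ratio of FPKM, linear axes from 0), with bars for the 95% counting interval. On the left dgp1_LP is lowest at 0.379 and the ZH11 libraries next at 0.429 and 0.753; on the right DJ_LP stands alone at 6.43.

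RCA and RbcS transcripts are known to cycle over the day, and the harvest hour is not stated. The morning clock gene LHY (Os08g0157600) had 621 FPKM in DJ, 694 in dgp1 and 211 in glk1glk2 with phosphate, and 160, 204 and 183 FPKM on low phosphate. In ZH11 it had 76.5 FPKM with phosphate and 127 without. Like RCA, it was high in the 2 control libraries of DJ and dgp1, lower in their low-phosphate partners, and higher in ZH11_NP than in ZH11_CK. In glk1glk2 the likeness broke, since LHY lay level with DJ_LP and dgp1_LP there while RCA lay well below them. GI, a clock gene of the later day, ran from 64.1 to 193 FPKM in the first table. In ZH11 it stood at 435 FPKM with phosphate and 481 without. PRR1, an evening clock gene, ran from 3.10 to 9.58 FPKM and stood at 24.9 and 29.4 in ZH11. Unlike RCA and LHY, both were listed higher on low phosphate in DJ and dgp1. GI went from 99.0 to 115 FPKM in DJ and from 145 to 193 in dgp1. PRR1 went from 3.77 to 7.998 FPKM in DJ and from 4.97 to 9.58 in dgp1. In glk1glk2 GI was near level (64.1 and 66.2 FPKM) and PRR1 lower on low phosphate (9.09 and 3.10). The PRR1 values of DJ_CK, dgp1_CK and both glk1glk2 libraries lay below the 1 kb floors of those libraries. The part of the time of day in the levels of RCA and RbcS was not tested.

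The plastid rbcL gene, which encodes the large subunit, was listed at 3.70 FPKM in DJ_CK, 0.336 in dgp1_CK, 0.515 in dgp1_LP and 0 in the other 3 libraries of that table. Plastid genes took 0.00388% to 0.187% of all reads in the 8 libraries, which leaves the large subunit without a usable measure beside its nuclear partner.

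Other nuclear enzymes of the Calvin cycle were followed as a list of 14 genes, 11 enzymes and 3 genes of the regulator CP12. In DJ on low phosphate 7 of the 14 were called lower and 1 higher, beside 24.3% and 23.1% of all genes. The median log2 ratio was -0.96 where all genes tested had -0.05. GAPA, a subunit of the plastid glyceraldehyde-3-phosphate dehydrogenase, was lowest at -2.36, followed by the plastid aldolase at -1.73. The 2 highest were CP12 genes, Os01g0303000 at -0.03 and Os08g0513100 at 2.70, the latter listed at 0 in DJ_CK and 5.52 FPKM in DJ_LP, below the DJ_CK floor.

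In dgp1 on low phosphate 3 of the 14 were called higher and 2 lower, not above the 24% and 20.7% of all genes. The median was -0.21 against 0.03 for all genes. PRK, the phosphoribulokinase that makes the CO2 acceptor, was highest at 1.86, and plastid PGK (phosphoglycerate kinase) next at 1.46. The CP12 gene Os03g0306800 was lowest at -1.48, followed by cpFBP, the plastid fructose-1,6-bisphosphatase, at -1.18.

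In glk1glk2 the same comparison gave 1 lower and none higher, beside 23.1% and 23.3% of all genes. The median was -0.23 against -0.02. CP12 Os08g0513100 was lowest at -4.63 from few fragments and cpFBP next at -0.52. CP12 Os03g0306800 at 0.97 and plastid PGK at 0.18 were highest, neither at 2-fold.

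In dgp1_CK over DJ_CK 5 were called higher and none lower, beside 16.1% and 14.1% of all genes, with a median of 0.67 against 0.03. CP12 Os08g0513100 (0 in DJ_CK) at 2.85 and cpFBP at 2.34 were highest, and plastid TPI at -0.08 and CP12 Os03g0306800 at -0.02 lowest. In dgp1_LP over DJ_LP 11 were called higher and none lower, beside 20.9% and 13.4% of all genes, with a median of 2.01 against 0.08. Plastid PGK at 3.50 and RPI, the ribose-5-phosphate isomerase, at 3.05 led the list, and 2 CP12 genes were lowest, Os03g0306800 at -0.83 and Os08g0513100 at -0.61. The summed RbcS ratio of 1.82 lay near that median and the RCA ratio of 0.15 below all 11 enzymes.

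In glk1glk2_CK over DJ_CK 9 were called lower and 1 higher, beside 31.3% and 27.4% of all genes, with a median of -1.18 against -0.08. GAPA at -2.52 and GAPB, the partner subunit, at -2.25 were lowest, and CP12 Os08g0513100 (0 in DJ_CK) at 4.63 and CP12 Os01g0303000 at 0.09 highest. Summed RbcS at -3.49 and RCA at -3.63 lay below every gene of the list.

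In glk1glk2_LP over DJ_LP 2 were called lower and none higher, beside 26% and 23.5% of all genes, with a median of -0.30 against -0.02. CP12 Os08g0513100 (0 in the mutant) at -2.70 and transketolase at -1.18 were lowest, and RPI at 0.71 and CP12 Os03g0306800 at 0.44 highest. In ZH11 none of the 13 measured genes was called, beside 1.61% of all genes higher and 3.19% lower, with a median of 0.02 against -0.03. PRK at 0.75 and GAPA at 0.53 were highest there, and CP12 Os01g0303000 at -0.34 and RPI at -0.16 lowest.

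**Figure D5:**
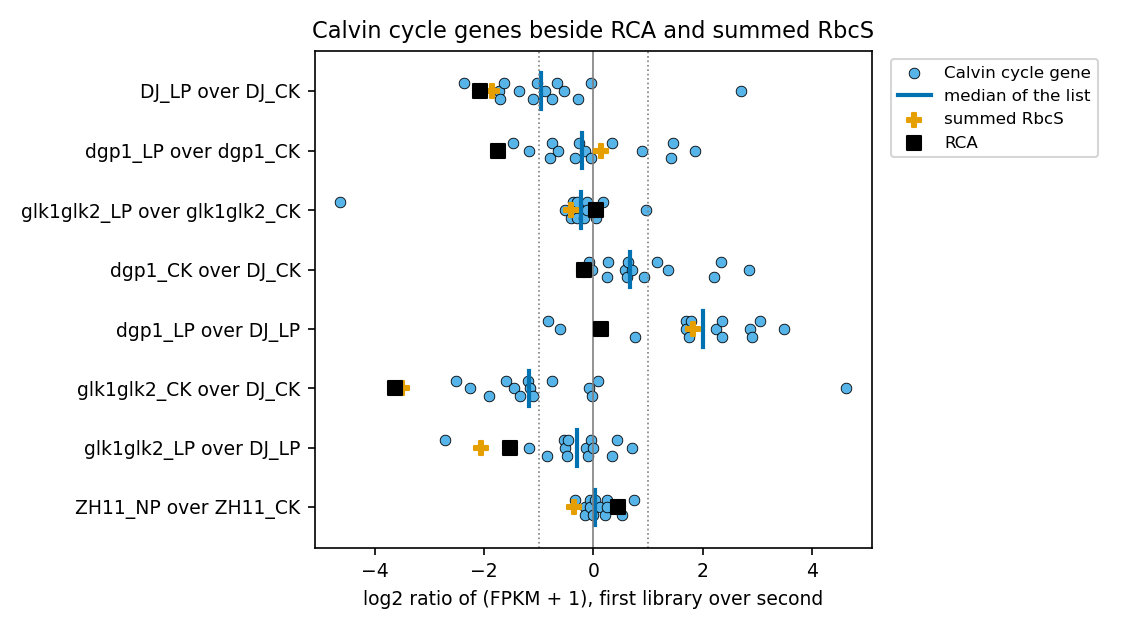
Log2 ratio of (FPKM + 1) for the measured genes of the Calvin cycle list (circles), their median (bar), summed RbcS (plus) and RCA (square) in the 8 comparisons, with dotted lines at 2-fold. In glk1glk2_CK over DJ_CK both Rubisco symbols (-3.49 and -3.63) lie left of every circle, and in dgp1_LP over DJ_LP the RCA square (0.15) lies left of the median (2.01) while summed RbcS (1.82) lies near it.

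Assembly of Rubisco needs plastid chaperonins (Cpn60 and Cpn20) and factors such as RbcX and BSD2. Of 20 annotated genes of these kinds, among them chaperonin genes whose compartment the descriptions do not always state, 10 to 14 were measured in each comparison. In DJ 4 of 12 were called higher and 1 lower on low phosphate, beside 23.1% and 24.3% of all genes, with a median log2 ratio of 0.62 against -0.05. In dgp1 5 of 12 were called higher and 2 lower, beside 24% and 20.7%, with a median of 0.49 against 0.03. In glk1glk2 3 of 10 were called higher and 4 lower, beside 23.3% and 23.1%, with a median of -0.33 against -0.02. In DJ the RbcX genes Os07g0569600 at -1.77 and Os03g0807900 at -0.63 were lowest, and the Cpn60 genes Os03g0859700 at 3.41 (0 in DJ_CK) and Os03g0293900 at 2.44 (2.47 FPKM in DJ_CK) highest. In dgp1 Cpn20 Os09g0438700 at -1.24 and RbcX Os03g0807900 at -1.10 were lowest, and Cpn60 Os03g0859700 at 3.44 (0 in dgp1_CK) and Cpn20 Os06g0196900 at 2.21 highest. The interval of Cpn60 Os03g0859700 took in equality in DJ (from 0.371) and in dgp1 (from 0.941). Those of the other extremes named for DJ and dgp1 did not. Cpn20 Os06g0196900, also called higher in DJ, had an interval there that took in equality (0.601 to 67.5).

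In glk1glk2 the RbcX genes Os08g0425200 at -4.05 and Os07g0569600 at -3.95 were lowest, both at 0 on low phosphate, and Cpn20 Os09g0438700 at 1.65 and Cpn60 Os02g0102900 at 1.06 highest. The intervals of these 4 ratios all took in equality. That of the next lowest, Cpn60 Os03g0859600 at -3.20, did not (10.1-fold lower, 1.47 to 377), a gene named after its values were seen.

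Between genotypes none of the 10 assembly genes measured was called in dgp1_CK over DJ_CK, beside 16.1% of all genes higher and 14.1% lower. Their ratios ran from -0.71 (Cpn60 Os06g0114000) and -0.61 (RbcX Os08g0425200) to 0.77 (Cpn60 Os03g0859600) and 0.79 (RbcX Os03g0807900). In dgp1_LP over DJ_LP 4 of 12 were called higher and 3 lower, beside 20.9% and 13.4% of all genes, with a median of -0.23 against 0.08. RbcX Os07g0569600 at 2.13 and Cpn20 Os06g0196900 at 1.37 were highest there, and Cpn20 Os09g0438700 at -1.60 and Cpn60 Os06g0114000 at -1.45 lowest.

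For glk1glk2 over DJ under control supply 3 of 11 assembly genes were called higher and 4 lower, beside 27.4% and 31.3% of all genes, with a median of -0.38 against -0.08. These ratios rest on few fragments, with Cpn60 Os03g0859700 at 5.65 and Cpn20 Os06g0196900 at 2.54 highest and Cpn60 Os12g0277500 at -3.92 and RbcX Os07g0569600 at -2.57 lowest. The intervals of Cpn20 Os06g0196900 (0.667 to 200.1) and Cpn60 Os12g0277500 (a ratio of up to 1.68) took in equality, while those of Cpn60 Os03g0859700 (from 1.05) and RbcX Os07g0569600 (6.26-fold lower, 1.09 to 175) did not. On low phosphate 1 of 12 was called higher and 6 lower, beside 23.5% and 26% of all genes, with a median of -1.22 against -0.02. There Cpn60 Os03g0859700 at 1.74 and RbcX Os03g0807900 at 0.55 were highest and the RbcX genes Os08g0425200 at -4.77 and Os07g0569600 at -4.75 lowest, both at 0 in the mutant. All 4 intervals took in equality, from 0.484 to 14.1 and 0.912 to 2.24 for the first pair and up to 1.40 and 1.65 for the second. In ZH11 none of 14 was called, beside 1.61% of all genes higher and 3.19% lower. Cpn60 Os03g0859600 at -0.88 and Cpn20 Os02g0781400 at -0.82 were lowest, and the Cpn60 genes Os09g0563300 at 0.59 and Os03g0859700 at 0.66 highest.

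The genes most like summed RbcS across the 6 libraries of the DJ table were sought by Pearson's r of log2(FPKM + 1). The search took in 8419 genes with a mean of at least 10 FPKM and a level above 0 in all 6 libraries. The 5 leading genes had r from 0.992 to 0.997 and Spearman's rho from 0.771 to 1. They were Os08g0110000 (described as a plastid methylesterase-like hydrolase), Os01g0386700 (a BSK-like kinase), Os06g0498400 (alpha-glucan water dikinase, which phosphorylates starch), OsPP104 (a protein phosphatase) and Os05g0143300 (undescribed). Os06g0498400 had 72.7 FPKM in DJ, 66.4 in dgp1 and 30.2 in glk1glk2 with phosphate and 43.1, 64.7 and 25.4 on low phosphate. In both glk1glk2 libraries each of these genes except OsPP104 lay below the 1 kb floor, 31.0 FPKM (CK) and 27.7 FPKM (LP). Without the 2 glk1glk2 libraries, those farthest from the median, r was 0.954 to 0.990.

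For RCA the 5 leading genes had r from 0.991 to 0.996 and rho from 0.886 to 0.943. They were OsCML29 (a calmodulin-like protein), Os05g0388500 (a plastid 50S ribosomal protein L1), Os06g0213400 (of unknown function), Os01g0899200 (a methyltransferase-like protein) and flo4 (pyruvate phosphate dikinase). OsCML29 had 645 FPKM in DJ, 763 in dgp1 and 41.4 in glk1glk2 with phosphate and 156, 179 and 50.1 on low phosphate. Os06g0213400 lay below the 1 kb floors in both glk1glk2 libraries, and Os01g0899200 in glk1glk2_CK. Without DJ_CK and dgp1_CK r was 0.972 to 0.999. In all, 115 genes had r of at least 0.95 with summed RbcS and 107 with RCA. These values rest on 6 libraries with shared depth differences and are given as a description.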

How the data were processed

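Leaf RNA of 8 groups, 1 library each, was sequenced after library preparation with a strand-keeping kit, per the labels' protocols. The deposited tables name no unit; they were read as FPKM computed by the authors, because value times gene length gave whole multiples of 1 step per library (within 0.01 for 100% of values). Aligner, counting tool, genome build and annotation are not given in the sources used here. Recovered reads per library, 12525772 to 16566008, were divided by the peak of genes by read number (searched from 5 to 600 reads) to estimate fragments. The peak was used because amplified copies are not independent molecules; where none was found, 1 read was taken as 1 fragment. No ratio was formed between the 2 tables.

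Comparisons used log2 ratios of (FPKM + 1), a filter of 5 FPKM in 1 library and a 2-fold rule; folds are ratios of FPKM. With 1 library per group no comparison of a pair has a test. Supply over the 3 genotypes was tested with limma 3.58.1 in R 4.3.3 (5 FPKM in at least 1 library), a fit added after the values were seen and checked on simulated data. The members and lists were chosen with earlier results of these data known. Genes named were the 6 members, the 2 highest and 2 lowest genes of the Calvin cycle and assembly lists in each comparison described, and the 5 most like summed RbcS and RCA. Clock genes were added after values were seen. Alternatives changed the pseudocount, the scaling, the filter and the RbcS sum; recovery of reads was tested on simulated data. Promoter and protein sequences were not analysed here. One gene of the assembly list is not reported here and was left out of its counts. Python 3.11.15, numpy 2.4.6, pandas 2.3.3, scipy 1.17.1 and matplotlib 3.10.9 were used.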

Additional observations from a re-analysis of the deposited data

Results flagged for a closer look

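The following pairs of ratios have opposite directions in 2 genotypes or 2 supplies. With 1 library per group these differences were not tested, and no cause was weighed. All values are log2 ratios of (FPKM + 1).

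For low phosphate over control, summed RbcS stood at -1.85 in DJ, 0.14 in dgp1 and -0.41 in glk1glk2, so dgp1 was opposite to both. RbcS3 followed the same order with -1.44 in DJ, 0.11 in dgp1 and -0.67 in glk1glk2. RbcS4 stood at -1.04 in DJ and 1.09 in dgp1, and RbcS5 at -2.46 in DJ and 2.11 in dgp1. The dgp1 and glk1glk2 ratios of summed RbcS and RbcS3 are under 2-fold. In glk1glk2 summed RbcS rests on 113 (CK) and 97 (LP) estimated fragments, and its interval ends close to equality (-0.81 to -0.002).

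For dgp1 over DJ, summed RbcS stood at -0.18 under control supply and 1.82 on low phosphate. RBCS2 stood at -0.40 and 2.75, and RbcS5 at -1.48 and 3.09. RCA stood at -0.17 and 0.15, both small, and its second sign depends on the scaling.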

How the results depend on the processing

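Replicates could not be paired, because the labels carry no replicate numbers to block on. With 1 library per group no replicate was left out. CK and LP libraries pair only by genotype, and the limma fit with genotype as a block called 0 of 19121 genes for supply, with a smallest adjusted p of 0.410. Pseudocounts of 0.1 and 5, and leaving RbcS1 out of the sum, moved no ratio of summed RbcS or RCA beyond its counting interval. Dividing the reads per fragment by 2, tried after the data were seen, leaves ratios as they are and narrows their intervals. No ratio at 2-fold or more reversed. The cause of the shifts below was not tested beyond the scaling itself.

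Scaling to own read totals moved the median of all genes by 0.38 (DJ), 0.11 (dgp1), -0.25 (dgp1 over DJ, CK), -0.51 (dgp1 over DJ, LP) and 0.38 (glk1glk2 over DJ, CK) on the log2 scale, and most ratios moved with it. Summed RbcS then stood at -1.46 for the DJ response, 0.26 for dgp1, -0.45 and 1.27 for dgp1 over DJ at control and low phosphate, -3.09 for glk1glk2 over DJ at control and -0.29 in ZH11. RCA stood in the same order at -1.66, -1.62, -0.44, -0.40, -3.22 and 0.53. With median-of-ratios factors summed RbcS was -1.72 (DJ response), 0.18 (dgp1 response), 1.78 (dgp1 over DJ, LP) and -0.33 (ZH11). RCA was -1.93, -1.70, 0.11 and 0.48 in these, and -1.70 for glk1glk2 over DJ on low phosphate.

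The number of genes at least 2-fold apart moved by over 1.5 times without a filter in DJ (7278 to 11492), dgp1 (6972 to 10933), dgp1 over DJ at control (4395 to 7775), glk1glk2 over DJ on low phosphate (7597 to 12050) and ZH11 (721 to 1299). With a filter of 10 FPKM it was 2784 for dgp1 over DJ at control and 478 in ZH11, and with a pseudocount of 5 it was 2873 and 323.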

Other observations

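A pair of short genes beside RCA on chromosome 11, Os11g0707050 and Os11g0707100, begins 2.00 kb from it. Os11g0707050 was listed at 27.4 FPKM in DJ_CK, 5.86 in dgp1_CK and 0 in the other 4 libraries of that table, and Os11g0707100 at 40.6 in DJ_CK, 12.04 in dgp1_CK, 1.91 in DJ_LP, 0.898 in dgp1_LP and 0 in glk1glk2. These are the libraries in which RCA itself was highest, and whether reads of RCA reached them was not tested. Another RCA-like gene, Os04g0658300, stood between 0 and 25.1 FPKM in the 6-library table and at 26.1 and 24.2 FPKM in ZH11_CK and ZH11_NP.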
